A study of Homo sapiens with 36 samples.

Results

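The long noncoding snoRNA host genes expressed in HEK 293T cells, a human embryonic kidney line, were examined for their response to 2 oxidants. Members were taken by name: every gene symbol made of SNHG (small nucleolar RNA host gene) and a number, together with *GAS5*, *ZFAS1* and *EPB41L4A-AS1*. Of 31 such symbols among 61587 genes in the count table, 28 reached a total of 36 counts or more across the 36 libraries and were kept. *SNHG18*, *SNHG27* and *SNHG28*, with 6, 1 and 24 counts, were left out. All 28 members passed the filter on low counts of the differential expression test, which left 22486 genes.

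The study solved the structure of the proteasome bound to TXNL1, a thioredoxin-like protein, and asked which contacts the arsenite-induced degradation of TXNL1 requires. To look further into this response and the role of TXNL1, it sequenced messenger RNA libraries from *TXNL1* knockout (KO) HEK 293T cells. All libraries came from this KO background, made with CRISPR and grown out from single sorted cells, so every group, controls included, shares the knockout. With lentiviral vectors driven by the CMV promoter, the KO cells received no TXNL1 (vector), wild-type TXNL1 (TXNL1-WT), the D162R R234D double mutant (TXNL1-DR-RD), which is deficient in proteasome binding, or the SxxS mutant (TXNL1-SxxS), in which the catalytic cysteines of the thioredoxin domain are replaced. Each of the 4 lines received DMSO, arsenite at 100 µM or hydrogen peroxide (H2O2) at 600 µM for 6 h, which gave 12 groups of 3 replicates. The labels call the control DMSO, whereas the study's methods speak of untreated cells, so whether the reference cells received the solvent is uncertain. The methods state treatment in triplicate, but the labels do not say whether replicates were separate cultures, so p-values measure the spread between these libraries, which may be technical.

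Total counts ranged from 42072410 to 174119002 per library with a median of 66016833. *TXNL1* counts were 30.6 ± 1.77 CPM (counts scaled to a common library size; SD, n = 3) in vector cells with DMSO, and 54.4 ± 3.15, 62.9 ± 3.50 and 53.4 ± 1.65 CPM in TXNL1-WT, TXNL1-DR-RD and TXNL1-SxxS cells. RNA of the edited gene was thus still counted in the KO cells, and the complemented lines stood above it. Of the line's markers, *VIM*, *LIN28B* and *CDH2* were well expressed, with DMSO means of 472, 178 and 64.9 CPM, whereas *PAX2* and *NEFM* were low at 0.285 and 0.132 CPM. Markers of leukocytes, endothelium, hepatocytes and squamous epithelium (*PTPRC*, *CD3E*, *PECAM1*, *ALB*, *KRT5*) were at 0.301 CPM or less in every library, and the fibroblast marker *DCN* reached 1.02 CPM.

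Replicate 1 of TXNL1-WT with arsenite and replicate 2 of TXNL1-WT with H2O2 stood apart from the other libraries. Across genes, the SD of their log2 CPM around the median of their group was 0.54 and 0.61, against 0.067 to 0.175 in the other 34 libraries. The host genes moved with them: 26 of 28 were higher in the outlying arsenite library than in both of its replicates, compared with 42.1% of all genes, and 25 of 28 in the outlying H2O2 library, compared with 44.9%. The median log2 ratio of the host genes to those replicates was 0.57 in the first library and 0.60 in the second, while that of all genes was -0.03 and 0.01. The cause was not tested, and the main values are given below both with these 2 libraries and without them.

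Small nucleolar RNAs (snoRNAs) guide chemical modification of ribosomal RNA, box C/D snoRNAs directing ribose methylation and box H/ACA snoRNAs directing pseudouridylation, while the related scaRNAs act on spliceosomal RNAs in Cajal bodies. In human cells most are cut out of introns of a host gene after splicing. The spliced host RNA often carries only a short open reading frame followed by further exon junctions, a layout that translating ribosomes expose to nonsense-mediated decay (NMD), and many hosts start in a run of pyrimidines of the kind that places messenger RNA translation under mTOR control. Host RNA levels are known to depend on both transcription and decay.

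RefSeq placed 148 snoRNAs or scaRNAs within the 28 genes, 83 of them in *SNHG14*, the long imprinted transcript of the Prader-Willi region, and 65 in all others. 11 members held only box C/D snoRNAs, 10 only box H/ACA snoRNAs and 4 (*SNHG10*, *SNHG20*, *SNHG21* and *SNHG22*) only a scaRNA, while *GAS5*, *SNHG12* and *SNHG25* held more than one class. In GENCODE release 44 (GRCh38) the canonical transcripts were 311 to 7005 bases long after splicing, with a median of 1363. The reading frame opened by the first ATG had a median of 20 codons and ranged from 2 codons in *SNHG21* to 67 in *SNHG7*. In 25 of 28 members an exon junction lay more than 50 bases beyond its stop codon, the exceptions being *SNHG25*, *SNHG3*, whose last junction followed the stop by 23 bases, and *SNHG9*, which had no such frame.

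These frames are printed for the 2 members with the largest response to arsenite and for 2 well-studied ones, with the start and stop codons in capitals. The last exon junction followed the stop by 747 bases in *SNHG17*, 2195 in *SNHG15*, 151 in *ZFAS1* and 281 in *SNHG1*.
SNHG17: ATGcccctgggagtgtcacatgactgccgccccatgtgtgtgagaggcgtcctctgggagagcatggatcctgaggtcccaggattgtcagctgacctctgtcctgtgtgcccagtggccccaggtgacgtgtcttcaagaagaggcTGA
SNHG15: ATGccccggTAA
ZFAS1: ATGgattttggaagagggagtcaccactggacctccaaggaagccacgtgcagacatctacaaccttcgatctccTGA
SNHG1: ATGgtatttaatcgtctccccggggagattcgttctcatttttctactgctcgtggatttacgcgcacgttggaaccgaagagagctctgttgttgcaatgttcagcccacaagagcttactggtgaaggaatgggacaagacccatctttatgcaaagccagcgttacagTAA

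A run of at least 5 C or T bases that began with C and lay within 10 bases of the RefSeq start was found in 13 of the 24 members with a promoter entry, against 29.4% of all 35116 promoters. The 21 bases centred on the start are given for 6 members with such a run and differing arsenite responses, with the run in capitals and each sequence read on the gene's own strand (GRCh38). *SNHG17* lies at chr20:38435318-38435338 (minus), *SNHG12* at chr1:28581863-28581883 (minus), *ZFAS1* at chr20:49278632-49278652 (plus), *SNHG32* at chr6:31834906-31834926 (plus), *SNHG29* at chr17:16438977-16438997 (plus) and *SNHG16* at chr17:76557754-76557774 (plus).
SNHG17: gtgtggcctcagtCCTTCgcc
SNHG12: gcttcagcgCCCTTTCTCCCC
ZFAS1: gccattcgttCTTTCgcgtct
SNHG32: cattttagttCTTTTTgcgaa
SNHG29: CCTTTTgtgaggattgggata
SNHG16: gggcggtctcgcgttCTTTTC

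Counted from the start, the run began at base 1 in *ZFAS1* and *SNHG32*, -1 in *SNHG12*, 4 in *SNHG17* and 6 in *SNHG16*. In *SNHG29* it began at base -10 and lay wholly before the start. Runs of this kind were present in *SNHG17*, which rose with arsenite, and in *SNHG16*, which fell. They were absent in *GAS5*, *SNHG1*, *EPB41L4A-AS1*, *SNHG11* and *SNHG30*, which also rose. Motifs of stress-responsive transcription factors were searched in the 24 promoters (250 bases before to 50 after the start, both strands). *SNHG6*, *SNHG9*, *SNHG15* and *SNHG25* had no promoter entry and were not searched. The CRE (TGACGTCA), the CARE bound by ATF4 and CHOP dimers (TGATGCAA) and the AP-1 site (TGACTCA) were found in 0 of the 24, and in 1.85%, 0.866% and 4.95% of all promoters. At shares this low, 0 of 24 cannot set the members apart from other promoters. The antioxidant response element (TGACNNNGC) was found in *SNHG20* and *SNHG4*, the E-box (CACGTG) in *SNHG30* and *SNHG7*, and a heat shock element in *GAS5*, compared with 13.3%, 7.26% and 0.490% of all promoters. Letters in a window do not show whether a factor was bound.

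In DMSO the 28 hosts covered a wide range of levels. Measured as CPM per kilobase of counted length, the highest were *SNHG29* at 26.2 ± 2.42 (SD, n = 12), *SNHG16* at 20.8 ± 0.896 and *SNHG1* at 18.1 ± 0.742. *SNHG7* and *GAS5* followed at 15.2 ± 0.977 and 15.1 ± 0.914 CPM per kilobase, a difference smaller than their spread. *SNHG6*, *SNHG19* and *SNHG32* were at 9.22, 9.05 and 8.94, *SNHG5* and *SNHG15* at 7.78 and 7.70, and *SNHG9*, *SNHG3*, *SNHG4* and *ZFAS1* between 6.20 and 3.66. *SNHG30*, *SNHG21*, *EPB41L4A-AS1*, *SNHG25*, *SNHG8* and *SNHG17* lay between 2.88 and 2.18 CPM per kilobase, and *SNHG11* and *SNHG12* at 1.44 and 1.15. The lowest were *SNHG10*, *SNHG20*, *SNHG31* and *SNHG26*, all under 1, *SNHG22* at 0.0631 and *SNHG14* at 0.0356. The counted length of *SNHG1*, *SNHG15*, *SNHG19* and *EPB41L4A-AS1* equals the whole gene, introns included, so their values per kilobase are lower than they would be per spliced length. It nearly equals the whole gene in *SNHG8*, *SNHG9*, *SNHG11* and *SNHG12*. For *SNHG14* it is 122609 bases, beside 7005 in the canonical transcript. Its 4.37 CPM is above the 1.09 of *SNHG26* and the 0.168 of *SNHG22*. The order per kilobase thus depends on counted length as well as on counts.

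**Figure D1:**
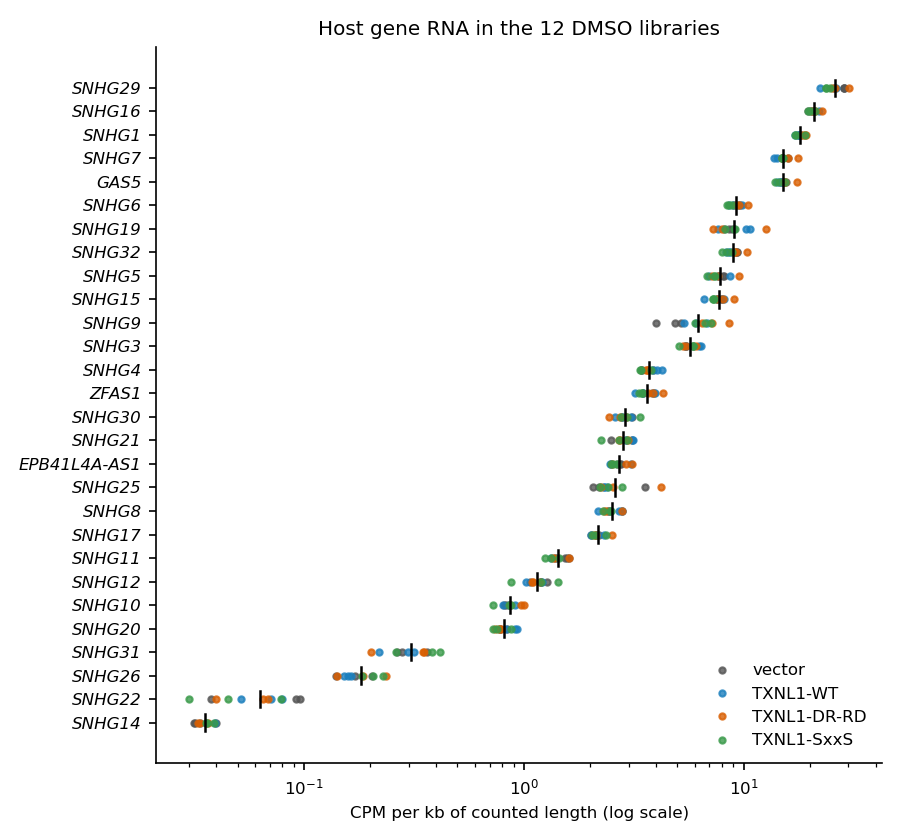
Level of each of the 28 host genes in the 12 DMSO libraries as CPM per kilobase of counted length (log axis), with a point per library colored by line and a black bar at the mean of 12. The genes run from *SNHG29* at 26.2 to *SNHG14* at 0.0356, and libraries of the 4 lines are mixed within most rows.

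Arsenite raised most host RNAs, *SNHG17* by 22.1-fold and *SNHG15* by 10.7-fold. Averaged over the 4 lines, 22 of 28 members (78.6%) were called, meaning an adjusted p under 0.05 in the quasi-likelihood test of edgeR (Benjamini-Hochberg, over all 22486 genes), 21 of them higher and 1 lower. Arsenite altered much of the transcriptome: 68.8% of all genes were called, 37.4% higher and 31.5% lower. The median log2 fold change of the members was 0.59, against 0.06 for all genes tested. A rise of at least 1 on the log2 scale was called in 10 members, compared with 7.46% of all genes. In 17 members all 12 arsenite libraries lay above all 12 DMSO libraries, and in 0 below, whereas this held in 13.4% and 16.6% of all genes. Without the 2 outlying libraries 26 members were called, 22 higher and 4 lower, with a median of 0.50, against 73.7% of all genes (38.4% higher, 35.3% lower).

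*SNHG17* (ENSG00000196756.14, chr20:38419638-38435409, minus strand), host of the SNORA71 family of H/ACA snoRNAs, had the largest rise. With DMSO its 12 libraries lay between 24.0 and 30.0 CPM with a median of 25.4, and with arsenite between 520.5 and 858 CPM with a median of 550.5. The groups were far apart, and 858 CPM belonged to the outlying TXNL1-WT library, without which the highest was 574. The log2 fold change was 4.46 ± 0.077 (SE), or 22.1-fold (adjusted p = 3.47e-28), and 4.39 without the outlying libraries. Among the 22486 genes its log2 fold change ranked 7.

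*SNHG15* (ENSG00000232956.10, chr7:44983019-44986961, minus strand), host of SNORA9, lay between 26.2 and 35.8 CPM with DMSO (median 29.9) and between 291 and 529 CPM with arsenite (median 315). Again no arsenite library came near a DMSO library. It rose 10.7-fold, with a log2 fold change of 3.42 ± 0.083 (adjusted p = 1.17e-24), and 3.33 without the outlying libraries, and ranked 35 among all genes.

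*SNHG12* (ENSG00000197989.15, chr1:28578538-28583132, minus strand), which carries both H/ACA and C/D snoRNAs, went from 3.74 to 6.10 CPM (median 5.07) with DMSO to between 27.4 and 51.1 CPM (median 31.3) with arsenite. All 12 arsenite libraries were above the DMSO range. The change was 6.63-fold (log2 fold change 2.73 ± 0.093, adjusted p = 5.21e-21; 2.63 without the outlying libraries).

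*ZFAS1* (ENSG00000177410.13, chr20:49278178-49299600, plus strand), a host of box C/D snoRNAs of the SNORD12 family, lay between 26.6 and 35.8 CPM with DMSO (median 29.8) and between 96.8 and 182 CPM with arsenite (median 109.8). The ranges did not overlap. It rose 3.78-fold, with a log2 fold change of 1.92 ± 0.076 (adjusted p = 2.06e-19; 1.84 without the outlying libraries). *EPB41L4A-AS1* (ENSG00000224032.8, chr5:112160526-112164818, plus strand), host of SNORA13, lay between 10.6 and 13.4 CPM with DMSO (median 11.4) and between 38.0 and 55.2 CPM with arsenite (median 41.8). Its groups also stood apart. The rise was 3.67-fold, or 1.88 ± 0.072 on the log2 scale (adjusted p = 7.94e-20; 1.81 without the outlying libraries).

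*SNHG1* (ENSG00000255717.8, chr11:62851978-62855953, minus strand), once named U22 host gene and among the first genes found to carry its function in introns, lay between 68.1 and 76.4 CPM with DMSO (median 71.4) and between 193 and 244 CPM with arsenite (median 198). Its libraries were the most tightly grouped of the strong responders, which shows in the SE. The log2 fold change was 1.51 ± 0.031, or 2.84-fold (adjusted p = 2.32e-26; 1.47 without the outlying libraries). *GAS5* (ENSG00000234741.9, chr1:173858559-173868882, minus strand), the growth-arrest transcript long studied as an NMD target, lay between 68.4 and 86.2 CPM with DMSO (median 74.2) and between 183 and 305 CPM with arsenite (median 202). No library of one group reached the other. *GAS5* rose 2.78-fold, by 1.48 ± 0.061 on the log2 scale (adjusted p = 6.28e-19; 1.40 without the outlying libraries).

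Changes in *SNHG29*, *SNHG7* and *SNHG6* were smaller. *SNHG29* (ENSG00000175061.19, chr17:16438767-16480249, plus strand), host of SNORD49A, SNORD49B and SNORD65, lay between 177 and 240.3 CPM with DMSO (median 206) and between 243 and 355 CPM with arsenite (median 266). The highest DMSO library and the lowest arsenite library were close, but the groups did not overlap. Its log2 fold change was 0.40 ± 0.056 (1.32-fold, adjusted p = 2.90e-07; 0.34 without the outlying libraries). *SNHG7* (ENSG00000233016.8, chr9:136721366-136728184, minus strand), host of SNORA17A and SNORA17B, lay between 67.2 and 86.3 CPM with DMSO (median 73.4) and between 92.6 and 151 CPM with arsenite (median 99.8). These ranges were separate as well. It rose 1.38-fold, by 0.47 ± 0.066 on the log2 scale (adjusted p = 3.57e-07; 0.39 without the outlying libraries). *SNHG6* (ENSG00000245910.9, chromosome 8), host of SNORD87, lay between 21.3 and 26.6 CPM with DMSO (median 23.1) and between 26.1 and 48.9 CPM with arsenite (median 29.4). The lowest arsenite library was within the DMSO range. The log2 fold change was 0.39 ± 0.077 (1.31-fold, adjusted p = 5.91e-05; 0.30 without the outlying libraries).

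*SNHG16* (ENSG00000163597.16, chr17:76557727-76670985, plus strand), host of the SNORD1 family and the host with the second highest level with DMSO, was the only member called lower when all libraries were used. It lay between 108 and 124 CPM with DMSO (median 113) and between 61.2 and 127 CPM with arsenite (median 66.4). The value of 127 CPM came from the outlying TXNL1-WT library. The other 11 arsenite libraries reached 77.5 CPM at most and were below all DMSO libraries. The log2 fold change was -0.66 ± 0.085 (adjusted p = 6.16e-08), and -0.77 without the outlying libraries. Its first reading frame has 33 codons, with a last junction 155 bases beyond the stop. Of the 28 members, 25 had a junction more than 50 bases beyond the stop. *SNHG3* and *SNHG9*, which rose, and *SNHG25*, which was not called, had none. Whether this layout bears on the response was not tested.

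*SNHG5* (ENSG00000203875.13, chr6:85650491-85678932, minus strand), host of the SNORD50 family, lay between 86.1 and 120.3 CPM with DMSO (median 96.7) and between 126 and 239 CPM with arsenite (median 143). Its groups did not overlap, and it rose 1.52-fold (log2 fold change 0.61 ± 0.086, adjusted p = 3.82e-07; 0.52 without the outlying libraries). *SNHG30* (ENSG00000267321.4, chr17:35568050-35574900, plus strand), host of SNORD7, lay between 3.96 and 5.47 CPM with DMSO (median 4.65) and between 8.30 and 14.0 CPM with arsenite (median 9.51). It rose 2.10-fold (log2 fold change 1.07 ± 0.068, adjusted p = 1.78e-14; 1.00 without the outlying libraries), with no overlap between groups.

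The hosts of scaRNAs differed among themselves. *SNHG20* (ENSG00000234912.12, chr17:77086716-77099902, plus strand), host of SCARNA16, lay between 4.41 and 5.68 CPM with DMSO (median 4.78) and between 6.19 and 8.41 CPM with arsenite (median 7.01). The ranges were separate, with a log2 fold change of 0.52 ± 0.062 (1.44-fold, adjusted p = 1.16e-08; 0.49 without the outlying libraries). *SNHG22* (ENSG00000267322.3, chr18:49813965-49851059, plus strand), host of SCARNA17, was barely expressed, between 0.0803 and 0.257 CPM with DMSO (median 0.178) and between 0.159 and 0.484 CPM with arsenite (median 0.279). Its ranges overlapped, and its log2 fold change of 0.76 ± 0.21 (1.70-fold, adjusted p = 0.00182; 0.69 without the outlying libraries) rests on few counts. *SNHG10* (ENSG00000247092.8, chr14:95521943-95534889, minus strand), host of SCARNA13, lay between 3.95 and 5.47 CPM with DMSO (median 4.68) and between 3.45 and 6.52 CPM with arsenite (median 4.24). The groups overlapped, and its log2 fold change of -0.12 ± 0.078 was not called (adjusted p = 0.185), but without the outlying libraries it was -0.20 and called (adjusted p = 0.00331).

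Of the remaining members, *SNHG32*, *SNHG11*, *SNHG21*, *SNHG3*, *SNHG8*, *SNHG19* and *SNHG9* rose, with log2 fold changes of 1.43, 1.05, 0.65, 0.64, 0.57, 0.56 and 0.47. Those of *SNHG26*, *SNHG4*, *SNHG31*, *SNHG14* and *SNHG25* were 0.22, 0.11, 0.08, -0.09 and -0.27, and none was called. Without the outlying libraries *SNHG4* was called higher (0.11), and *SNHG14* and *SNHG25* lower (-0.13 and -0.42). Exons of *SNHG3*, *SNHG4*, *SNHG14* and *SNHG20* overlap exons of *RCC1*, *MATR3*, *SNRPN* and *SEC14L1* on the same strand. How reads shared with those genes were counted is not given in the sources used here.

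**Figure D2:**
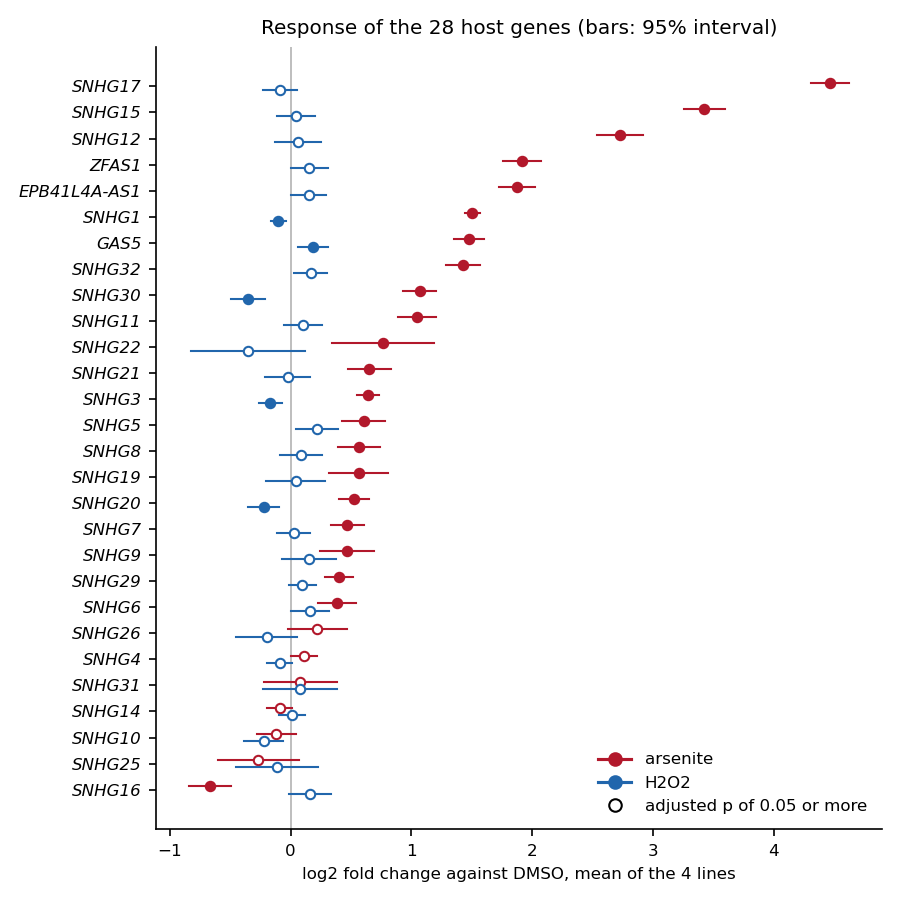
Log2 fold change against DMSO of each of the 28 host genes, averaged over the 4 lines, for arsenite (red) and H2O2 (blue), with bars for the 95% confidence interval and open points for an adjusted p of 0.05 or more. Arsenite values run from 4.46 for *SNHG17* down to -0.66 for *SNHG16*, while H2O2 values lie between -0.35 and 0.22.

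**Figure D3:**
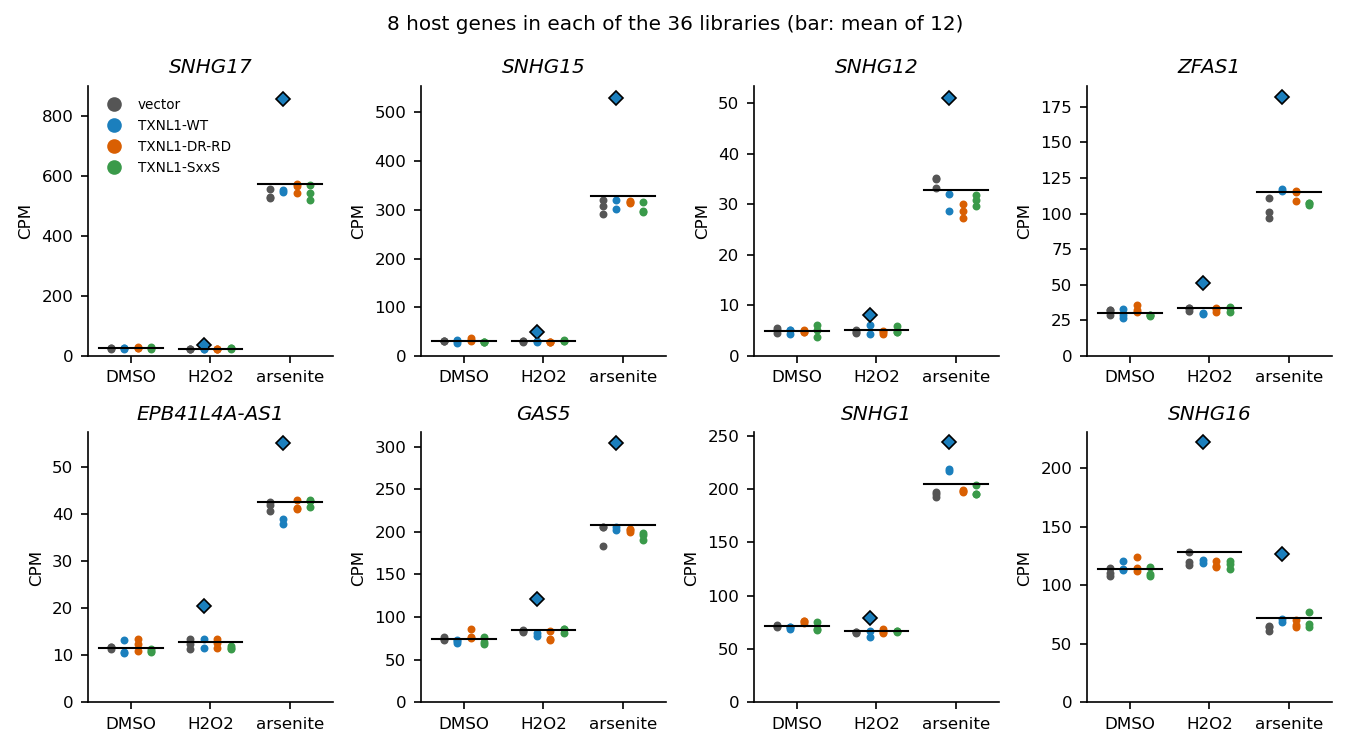
CPM (linear axis from 0) of 8 host genes in each of the 36 libraries by treatment, colored by line, with a black bar at the mean of 12 libraries and diamonds for the 2 outlying TXNL1-WT libraries. The arsenite libraries of *SNHG17* lie between 520.5 and 858 CPM in all 4 lines, and in these 8 genes each diamond is the highest library of its treatment.

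The response was present in each of the 4 lines. With arsenite 18 members were called in vector cells, 21 in TXNL1-WT, 17 in TXNL1-DR-RD and 18 in TXNL1-SxxS, against 43.4%, 53.6%, 44% and 43.6% of all genes, and 17, 21, 16 and 17 of these were higher (22.1%, 28.7%, 22.5% and 22.1% of all genes). Without the outlying libraries the counts were 22, 20, 21 and 21, against 56.4%, 52.9%, 56.9% and 57% of all genes. *SNHG17* reached 556, 527 and 529 CPM in the arsenite replicates of vector cells, 858, 546 and 554 in TXNL1-WT, 543, 568 and 574 in TXNL1-DR-RD and 520.5, 571 and 543 in TXNL1-SxxS. Apart from the outlying library the lines covered one another's range. Its log2 fold changes were 4.41, 4.66, 4.39 and 4.39 in the same order, and that of TXNL1-WT was 4.38 without the outlying library. The fall of *SNHG16* was -0.80 on the log2 scale in vector, -0.81 in TXNL1-DR-RD and -0.67 in TXNL1-SxxS, while in TXNL1-WT it was -0.38 (adjusted p = 0.0603), and -0.76 without the outlying library.

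A test of the difference between lines in the arsenite response (interaction of line and arsenite, edgeR F test over 3 contrasts) called 0 of 28 members, against 0% of all genes. The smallest p among members was that of *SNHG1* (adjusted p = 0.698), with an unadjusted p of 0.00832 in edgeR's quasi-likelihood fit, and no other member was under 0.05 before adjustment. *SNHG1* reached 196, 193 and 197 CPM in vector cells with arsenite, 244, 217 and 219 in TXNL1-WT, 199, 199 and 197 in TXNL1-DR-RD and 195, 204 and 196 in TXNL1-SxxS. All TXNL1-WT libraries were higher than those of the other lines, the outlying library most. Its log2 fold changes were 1.44, 1.70, 1.39 and 1.49, and that of TXNL1-WT was 1.62 without the outlying library, when the interaction had an adjusted p of 0.122. DESeq2's likelihood ratio test on the DMSO and arsenite libraries, the outlying one included, called this interaction for *SNHG1* (adjusted p = 0.0264). It called 158 of 22486 genes. The study itself reported that, apart from *TXNL1*, no transcript differed specifically between the lines in its arsenite response.

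**Figure D4:**
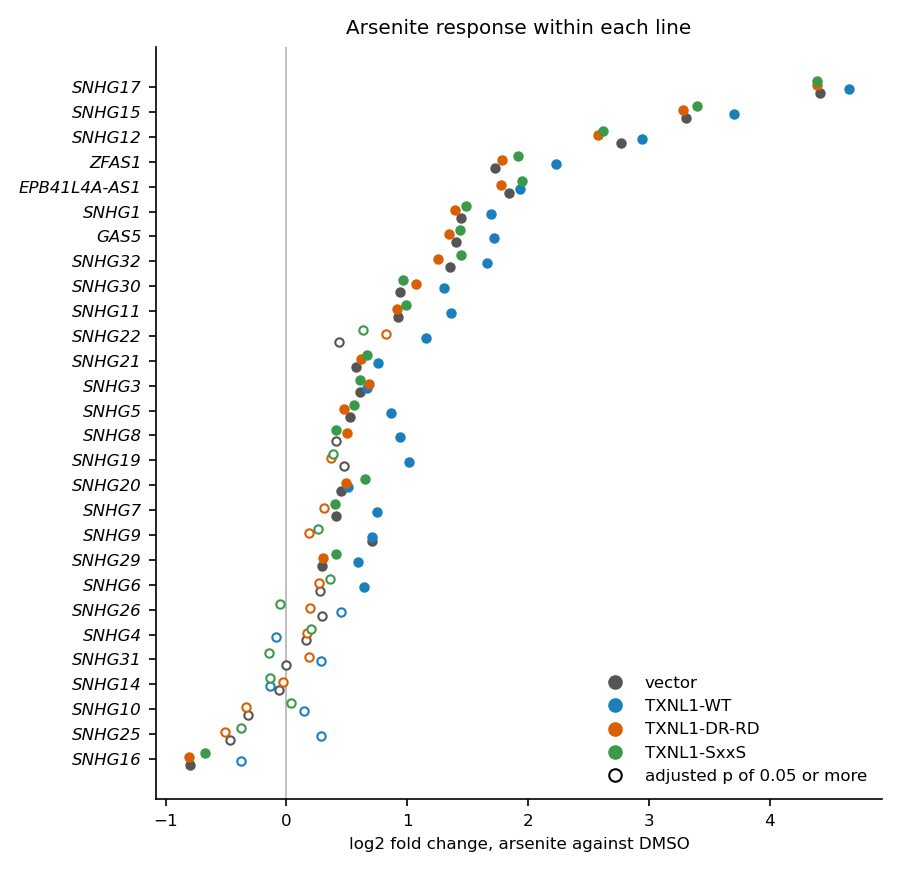
Log2 fold change with arsenite against DMSO of each of the 28 host genes within each of the 4 lines (3 libraries against 3), all libraries included, with open points for an adjusted p of 0.05 or more. For *SNHG17* the lines lie between 4.39 and 4.66, and TXNL1-WT, which holds the outlying arsenite library, has the highest value for most genes.

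Between lines with DMSO alone, 0 of 28 members were called in TXNL1-WT, TXNL1-DR-RD or TXNL1-SxxS against vector by edgeR, compared with 0.196%, 0.0267% and 0.0178% of all genes, and 0, 1 and 2 had an unadjusted p under 0.05. Log2 fold changes of the members ranged from -0.21 to 0.38, from -0.37 to 0.66 and from -0.51 to 0.49. Without the outlying libraries *SNHG29* was called lower in TXNL1-WT (log2 fold change -0.21, adjusted p = 0.0373) and *SNHG9* higher in TXNL1-DR-RD (0.65, adjusted p = 0.0243), against 2.99% and 0.0756% of all genes called in these comparisons. *SNHG29* lay at 228, 229 and 227 CPM in vector cells and at 177, 206 and 209 CPM in TXNL1-WT. *SNHG9*, host of SNORA78, lay at 2.98, 3.16 and 2.44 CPM in vector cells and at 3.95, 4.40 and 5.26 CPM in TXNL1-DR-RD. In both pairs the 3 libraries of one line lay outside the range of the other. The other lines also lay outside the vector range in part: *SNHG29* was at 197, 189 and 189 CPM in TXNL1-SxxS, and *SNHG9* at 3.72, 3.28 and 4.15 CPM in TXNL1-WT and at 4.07, 3.69 and 4.34 CPM in TXNL1-SxxS. No difference among the complemented lines was tested.

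H2O2 changed few host RNAs and none by a large factor. Averaged over the 4 lines, 5 of 28 members (17.9%) were called, 1 higher and 4 lower, against 12.1% of all genes (6.78% higher, 5.3% lower). The median log2 fold change was 0.04 for the members and 0.00496 for all genes, and in 0 members were the H2O2 libraries all above or all below the DMSO libraries (0.551% and 0.6% of all genes). Without the outlying libraries 9 members were called, 3 higher and 6 lower, with a median of -0.02, against 28.6% of all genes (14.7% higher, 13.9% lower).

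*SNHG30* had the clearest fall, with 2.97 to 5.99 CPM over the 12 H2O2 libraries (median 3.47). The value of 5.99 belonged to the outlying library, and the others reached 4.33 CPM, still within the DMSO range. Its log2 fold change was -0.35 ± 0.070 (adjusted p = 7.89e-04) and -0.41 without the outlying libraries. *SNHG20* lay between 3.48 and 6.22 CPM with H2O2 (median 4.15), overlapping DMSO, with a log2 fold change of -0.22 ± 0.063 (adjusted p = 0.0185; -0.27 without the outlying libraries). *SNHG3*, host of SNORA73A and SNORA73B, and *SNHG1* were called lower at -0.17 (adjusted p = 0.0125) and -0.10 (adjusted p = 0.0268). *GAS5* was called higher at 0.18 ± 0.060 (adjusted p = 0.0447; 0.12 without the outlying libraries), with H2O2 libraries between 73.7 and 121 CPM (median 83.0) that overlapped those with DMSO. This call was lost in 21 of 32 alternative analyses.

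3 further members were among the 5 with the largest absolute H2O2 estimates but were not called. *SNHG22* lay between 0.0184 and 0.209 CPM (median 0.133), with a log2 fold change of -0.35 ± 0.23 (adjusted p = 0.389). *SNHG10* lay between 3.41 and 6.40 CPM (median 3.75), with -0.22 ± 0.079 (adjusted p = 0.0639), and was called without the outlying libraries (-0.28, adjusted p = 3.48e-04). *SNHG5* lay between 98.0 and 204 CPM (median 107), with 0.22 ± 0.086 (adjusted p = 0.101), and was also called without them (0.12, adjusted p = 0.0339). All 3 overlapped their DMSO ranges.

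The genes that led the arsenite response were not called with H2O2. *SNHG17* lay between 21.6 and 35.8 CPM with H2O2 (median 23.7), *SNHG15* between 27.8 and 48.8 CPM (median 30.3) and *SNHG12* between 4.29 and 8.10 CPM (median 4.72), all overlapping DMSO. With H2O2 they changed by -0.09, 0.04 and 0.06 on the log2 scale (edgeR adjusted p = 0.491, 0.811 and 0.776), with 95% confidence intervals of -0.23 to 0.05, -0.12 to 0.20 and -0.13 to 0.25. Without the outlying libraries *SNHG17* was called lower (-0.16, adjusted p = 3.43e-04). *ZFAS1* lay between 29.4 and 51.5 CPM (median 33.1) and *EPB41L4A-AS1* between 11.3 and 20.6 CPM (median 12.1), with log2 fold changes of 0.16 and 0.15 that were not called. Among the abundant hosts *SNHG29*, *SNHG16*, *SNHG7* and *SNHG6* had medians of 215, 119.9, 72.3 and 24.7 CPM with H2O2 and log2 fold changes of 0.10, 0.16, 0.03 and 0.16, and none was called.

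Within single lines H2O2 called 0 members in each of the 4 by edgeR, against 1.35% of all genes in vector, 8.06% in TXNL1-WT, 1.03% in TXNL1-DR-RD and 1.02% in TXNL1-SxxS, and 4, 12, 5 and 1 members had an unadjusted p under 0.05. Without the outlying libraries 4, 1, 6 and 4 were called, against 9.87%, 8.98%, 10.4% and 6.56% of all genes. *SNHG30* was among them in vector, TXNL1-DR-RD and TXNL1-SxxS, at -0.53, -0.50 and -0.43. The interaction of line and H2O2 called 0 members, against 0.685% of all genes. The smallest p was that of *SNHG30* (adjusted p = 0.450), and no other member was under 0.05 before adjustment.

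Tested directly against each other, the oxidants differed for most hosts: 24 of 28 members were called between arsenite and H2O2 (68.7% of all genes), 23 higher with arsenite (37.3% of all genes) and *SNHG16* lower (31.3%). The log2 difference was 4.55 for *SNHG17*, 3.38 for *SNHG15*, 2.67 for *SNHG12* and -0.83 for *SNHG16*. The doses of 100 and 600 µM are not matched, and 25 members were called without the outlying libraries (74.8% of all genes).

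The count rows of the snoRNAs within these hosts mostly had a lower ratio of arsenite to DMSO than the host, a difference that was not tested. These intervals have count rows of their own, which in messenger RNA libraries can hold reads from the mature snoRNA or from unspliced host RNA, and these cannot be told apart. Since most of these rows overlap an exon of some host transcript, and how reads on several genes were counted is not given in the sources used here, their counts are uncertain. By GENCODE 44, *GAS5*, with 11 snoRNAs in RefSeq, had no snoRNA row, and the rows of *SNHG14* held 0 counts. The 5 rows within *SNHG17* summed to 0.806 CPM with DMSO (0.586 to 1.14 over 12 libraries) and 0.770 CPM with arsenite (0.546 to 0.913, and a mean of 0.758 without the outlying library), a ratio of 0.955, beside 22.1 for the host. The same ratio was 0.902 for SNORA9 beside 10.8 for *SNHG15*, 0.661 for the 4 rows of *SNHG12* beside 6.66, and 0.514 for the 7 rows of *SNHG1* beside 2.84. In *SNHG1* the rows summed to 1.75 to 2.76 CPM with DMSO and 0.990 to 1.36 CPM with arsenite, so the sums did not overlap while moving opposite to the host.

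Over the 17 hosts whose rows held at least 40 counts with DMSO, the host ratio was above 1 in 14, the snoRNA ratio was below 1 in 13, and the snoRNA ratio was below that of the host in 15. The exceptions were *SNHG10*, with 1.45 for SCARNA13 beside 0.927, and *SNHG25*, with 0.847 beside 0.827. The rows of *SNHG25* held counts equal to 55.8% of the host's with DMSO and 57.5% with arsenite. Host and rows of *SNHG25* may therefore share many reads. In hosts whose rows held fewer than 40 counts with DMSO, the snoRNA ratio was above that of the host in *SNHG4*, *SNHG22*, *SNHG30* and *SNHG31*. It was below that of the host in *EPB41L4A-AS1*, *SNHG8*, *SNHG9*, *SNHG21* and *SNHG26*. Rows were tested if they held at least 10 counts over the 3 vector libraries with DMSO. Selecting rows by their DMSO counts can favour apparent falls, and its effect was not tested. Among the 34 snoRNA rows that could be tested, 1 was called higher with arsenite (SNORD49B in *SNHG29*, log2 fold change 0.31), 19 lower and 14 neither, with a median of -0.66. Of all genes, 37.4% were called higher and 31.5% lower. Leaving out the outlying libraries gave 1 higher and 21 lower, against 38.4% and 35.3% of all genes. *SNHG12*'s SNORA44 then moved from -1.33 to -2.18 and *SNHG25*'s SNORD104 from -0.67 to -2.05. With H2O2, 0 of the 34 rows were called higher and 2 lower, against 6.78% and 5.3% of all genes. Those called lower were SNORA71C in *SNHG17* and SNORD65 in *SNHG29*, and the median of the rows was -0.16.

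Rows of one host differed. Within *SNHG1*, SNORD28 and SNORD26 fell by 2.06 and 1.16 on the log2 scale, whereas SNORD25 was at -0.13 (adjusted p = 0.326). SNORA73A and SNORA73B in *SNHG3* fell by 2.35 and 1.87, and SNORD50B in *SNHG5* by 2.25. Within *SNHG17*, SNORA71C and SNORA71B fell by 1.06 and 0.61, while SNORA71A and SNORA71D were at 0.46 (adjusted p = 0.0858) and 0.56 (adjusted p = 0.135). The falls of SNORA71C and SNORA71B were not particular to arsenite. With H2O2 SNORA71C was called lower at -0.92, and SNORA71B was at -0.45 and not called. Neither was called between arsenite and H2O2, at -0.14 and -0.16.

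The SNORA71 copies are printed because their likeness bears on these values: reads could be split among them or lost, depending on how multiply mapping reads were treated. They lie in *SNHG17* (A at chr20:38427309-38427442, C at chr20:38429670-38429803 and D at chr20:38433865-38433998, all minus strand) and in its neighbour *SNHG11* (E, plus strand), and were read from GRCh38 with the terminal ACA that gives the class its name in capitals.
SNORA71A: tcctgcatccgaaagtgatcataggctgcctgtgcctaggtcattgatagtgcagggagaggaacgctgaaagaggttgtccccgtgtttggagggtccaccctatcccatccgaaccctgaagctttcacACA
SNORA71C: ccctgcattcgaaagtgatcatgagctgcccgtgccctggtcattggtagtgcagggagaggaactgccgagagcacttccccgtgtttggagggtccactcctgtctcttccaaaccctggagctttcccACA
SNORA71D: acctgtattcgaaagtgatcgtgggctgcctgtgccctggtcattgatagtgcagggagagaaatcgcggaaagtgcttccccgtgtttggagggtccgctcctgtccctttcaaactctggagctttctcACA
SNORA71E: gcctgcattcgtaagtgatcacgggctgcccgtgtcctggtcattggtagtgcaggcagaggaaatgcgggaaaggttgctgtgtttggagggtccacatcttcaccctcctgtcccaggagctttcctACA
Pairwise identity ranged from 77.4% to 86.6%.

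**Figure D5:**
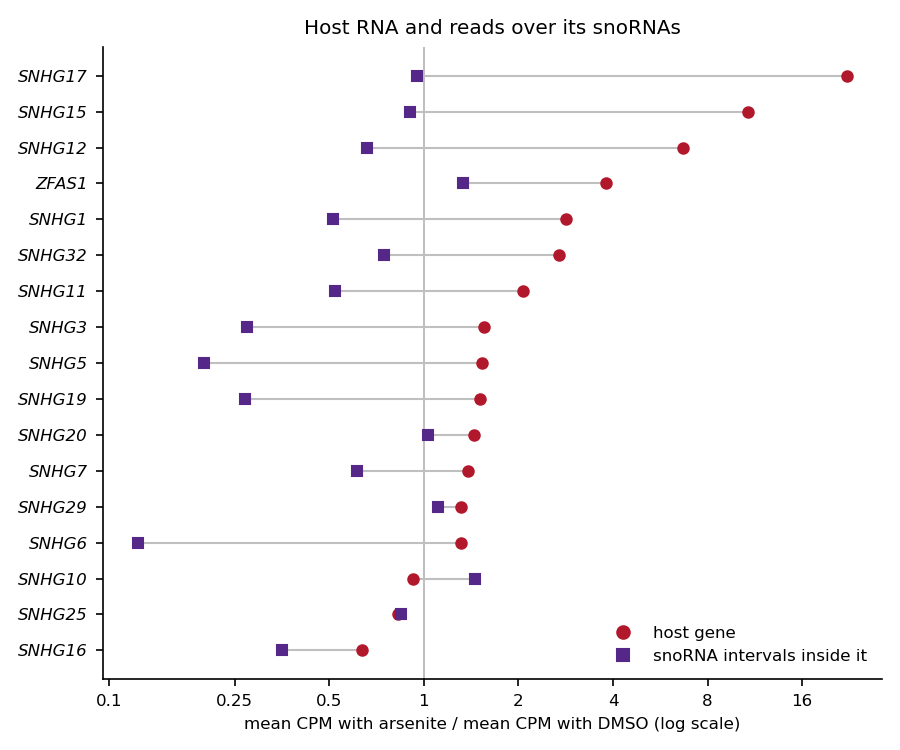
Ratio of mean CPM with arsenite to mean CPM with DMSO (log axis, 12 libraries each) for 17 host genes (circles) and for the summed snoRNA rows within each (squares). Only hosts whose rows held at least 40 counts with DMSO are shown. *SNHG17* lies at 22.1 and its snoRNA rows at 0.955, and in 15 of 17 hosts the square lies left of the circle.

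Protein-coding genes that start close to a host on the opposite strand did not all move with it. *SLC3A2*, a subunit of amino acid transporters that starts 51 bases from *SNHG1*, rose with arsenite by 2.25 ± 0.046 on the log2 scale (adjusted p = 1.80e-26), beside 1.51 for the host. *RPS2*, a ribosomal protein gene 54 bases from *SNHG9*, *TRAF7*, 293 bases from *SNHG19*, and *BARD1*, 498 bases from *SNHG31*, were called higher at 0.28, 0.18 and 0.41. *ACAA2*, 12 bases from *SNHG22*, was at 0.07 (adjusted p = 0.0867). *ZNFX1*, *GLRX5* and *ZBTB37*, which start within the spans of *ZFAS1*, *SNHG10* and *GAS5*, were called lower at -0.09, -0.18 and -1.01. Exons of *ZNFX1* and *GLRX5* overlap host exons on the opposite strand. *ZNFX1* was not called in any single line. For *ZFAS1* and *GAS5* the neighbour thus fell while the host rose. The 8 neighbours kept their direction without the outlying libraries, with *SLC3A2* at 2.19, *RPS2* at 0.19 and *ZBTB37* at -0.95. The libraries were strand-specific, but whether counting used strand is not given in the sources used here.

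Genes of the decay pathway itself moved in both directions with arsenite. Of 12 NMD factors 4 were called higher and 6 lower, against 37.4% and 31.5% of all genes, with a median of -0.01. The largest rises were those of *UPF3A*, *SMG9* and *UPF3B* (0.69, 0.54 and 0.30), and the largest falls those of *SMG8* and *SMG1*, which are parts of the UPF1 kinase complex, and of the helicase *UPF1* (-1.12, -0.65 and -0.37). Of 6 exon junction complex genes, 3 rose (*RNPS1* 0.46, *MAGOHB* 0.18, *MAGOH* 0.16) and 2 fell (*RBM8A* -0.25, *EIF4A3* -0.22), with a median of 0.03. With H2O2, 5 of the 12 NMD factors were called higher and 0 of the exon junction genes, against 6.78% of all genes. When the outlying libraries were left out, 6 NMD factors were higher and 6 lower with arsenite, against 38.4% and 35.3% of all genes. In that fit 6 were higher with H2O2, against 14.7% of all genes, and the arsenite value of *UPF3B* moved from 0.30 to 0.16.

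Of 21 messenger RNAs known as NMD-sensitive, 19 were called higher and 1 lower with arsenite, with a median of 0.84. The shares of all genes were 37.4% and 31.5%. The leading ones, *ATF3* (4.42), *GADD45B* (3.50) and *DDIT3* (2.51), are also stress-induced genes, and *TBL2* fell by 0.12. Of these 21, 8 were higher and 3 lower with H2O2, against 6.78% and 5.3% of all genes. Of 51 protein-coding snoRNA hosts, 32 rose and 14 fell with arsenite, with a median of 0.24, beside 0.59 for the noncoding hosts, and 1 rose and 1 fell with H2O2. These counts stand beside the same shares of all genes. With the outlying libraries removed, 33 rose and 14 fell with arsenite (median 0.19), against 38.4% and 35.3% of all genes. In that fit 4 rose and 8 fell with H2O2, against 14.7% and 13.9%. *EIF4A2*, a translation initiation factor, *TAF1D*, a subunit of the RNA polymerase I factor SL1, and *NOP56*, a box C/D core protein, rose most (1.63, 1.39 and 0.84), while *PPAN*, *IPO7* and *HSPA8* fell most (-1.22, -0.80 and -0.64). The difference between the noncoding and the protein-coding hosts was not tested.

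Of 16 snoRNA-binding and assembly proteins, 6 were called higher and 4 lower with arsenite (median 0.10), against 37.4% and 31.5% of all genes. The box C/D core proteins *NOP58* and *NOP56* rose by 1.49 and 0.84, and the assembly factor *PIH1D1* by 0.76. The assembly factors *ZNHIT6* and *SHQ1* and the H/ACA protein *GAR1* were at -0.74, -0.11 and -0.35. Of 15 long noncoding RNAs that carry no snoRNA, 7 rose and 6 fell, beside the same shares of all genes, with a median of 0.07. *PVT1*, *KCNQ1OT1* and *NEAT1* were at 2.58, 1.62 and 1.54, and *LINC00667*, *OIP5-AS1* and *MIR17HG* at -1.49, -1.03 and -0.99. With H2O2, 0 of the snoRNA-binding proteins and 0 of these noncoding RNAs were called higher by edgeR, and 1 of each was called lower. Of all genes, 6.78% were called higher and 5.3% lower. In the fit that omits the outlying libraries, 2 of these proteins were called higher and 6 lower with H2O2, and 1 of these noncoding RNAs higher and 4 lower. That fit called 14.7% of all genes higher and 13.9% lower with H2O2. With arsenite the medians of these proteins and noncoding RNAs became 0.016 and 0.021.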

How the data were processed

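Messenger RNA libraries (DNBseq, strand-specific, 100-bp paired-end) were made from 12 groups of 3 replicates, grouped by the labels. The deposited values are raw counts per gene, which the authors obtained after alignment with qAlign (QuasR) against GRCh38 (primary assembly). Annotation release, strand setting and treatment of reads on several genes are not given in the sources used here. The submitters' processing notes name DESeq2. All columns matched a sample (0 unmatched).

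Genes with at least 10 counts over the 3 vector libraries with DMSO were kept (22486), scaled by TMM and fitted in edgeR 4.0.16 (limma 3.58.1, R 4.3.3) with 1 mean per group over 36 libraries. Quasi-likelihood tests were adjusted by Benjamini-Hochberg over all genes, with calls at an adjusted p under 0.05. The biological coefficient of variation was 12.4%, so smaller differences need the pooled replicates to be seen. CPM values use TMM-scaled library sizes. Averages weigh the 4 lines equally. Alternatives were other scalings and filters, DESeq2 1.42.0, a replicate block, fits of only the groups compared, members without same-strand overlap, and omitted libraries. The fit was tested on simulated data.

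The members and gene lists were chosen with earlier results of these data known. Every member is named. Described in full are *GAS5*, *ZFAS1*, *EPB41L4A-AS1*, the 5 SNHG genes highest per kilobase with DMSO, the 5 members with the largest absolute log2 fold change for each oxidant, and members called between lines. From other lists, at most 3 rises and 3 falls are named, plus neighbours that start within 2000 bases. Gene positions are from GENCODE 44, promoters and snoRNA numbers from RefSeq. Of the file's 61587 gene IDs, 61415 were found in GENCODE 44, 56987 in the same version. Replicate numbers were not used as pairs in the main fit. The correlation of deviations between same-numbered libraries had a median of 0.0172 over 198 pairs, with 53 above 0.1. Between differently numbered libraries it had a median of -0.00933 over 396 pairs, with 90 above 0.1. Single values ran from -0.888 to 0.835 and from -0.891 to 0.929, so the medians cannot decide whether some libraries were paired.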

Additional observations from a re-analysis of the deposited data

How the results depend on the processing

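The number of host genes called with arsenite averaged over the lines was 22 and lay between 22 and 26 over all other scalings, filters, tools and omitted libraries, except that among the 3 members whose exons overlap no other gene on their strand (*GAS5*, *SNHG26* and *SNHG31*) 1 was called, in the average and in each line, by construction of that smaller set. That set gave 1 call for H2O2 and 2 for arsenite against H2O2. No single member's call for the arsenite average was lost or reversed. Leaving out 1 library gave 22 to 25 calls for the arsenite average, 15 to 18 in vector, 20 to 21 in TXNL1-WT, 14 to 18 in TXNL1-DR-RD, 17 in TXNL1-SxxS and 24 to 25 for arsenite against H2O2. The median of the members with arsenite was 0.59 with TMM, 0.56 with DESeq2's size factors and 0.54 with total counts, and that of all genes 0.06, 0.04 and 0.02.

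The H2O2 calls depended on the processing. The 5 calls of the average became 1 with no filter on low counts, 9 without both outlying libraries, and 4 to 8 when 1 library was left out, with 8 without TXNL1-WT H2O2 replicate 3. In single lines the 0 calls became, in vector, 1 with total counts, 4 without both outlying libraries, 1 with DESeq2 and 6 when only the groups compared were fitted. In TXNL1-WT they became 1 with DESeq2's size factors, total counts, filterByExpr or without both outlying libraries, 4 with DESeq2, and 0 to 12 when 1 library was left out (12 without H2O2 replicate 1 and 11 without H2O2 replicate 3). In TXNL1-DR-RD they became 1 with total counts and 6 without both outlying libraries, and in TXNL1-SxxS 4 without these and 5 when only the groups compared were fitted. Between lines with DMSO, the 0 calls became 1 in TXNL1-WT and 1 in TXNL1-DR-RD without the outlying libraries, and 1 in TXNL1-WT and 3 in TXNL1-SxxS when only the groups compared were fitted. DESeq2 called 1 interaction of line and arsenite. Over the other gene lists together, calls with H2O2 went from 20 to 44 without the outlying libraries. The cause of these shifts was not tested.

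With a replicate block, 23 members were called for arsenite and 4 for H2O2. Whether libraries of the same number share more than that number is not known. Signs reversed for uncalled H2O2 values only. Without both outlying libraries *SNHG12* was at -0.013, *SNHG14* at -0.013, *SNHG15* at -0.037, *SNHG19* at -0.076 and *SNHG7* at -0.050. With 1 library left out, *SNHG12* ranged from -0.00445 to 0.112, *SNHG14* from -0.00935 to 0.039, *SNHG15* from -0.032 to 0.080, *SNHG19* from -0.071 to 0.108, *SNHG7* from -0.045 to 0.062 and *SNHG21* from -0.078 to 0.034. *GAS5* lost its H2O2 call in 21 of 32 alternatives, *SNHG1* in 3, *SNHG20* in 1 and *SNHG3* in 1. Depth limits *SNHG22*, *SNHG25* and *SNHG31*, the members with the lowest counts, and the snoRNA rows.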
